A study of Mus musculus with 8 samples.

Results

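Bnip3 and 7 further genes of mitochondrial removal were followed in the retina of adult mice with a quadruple knockout (4xKO) of the extracellular matrix genes Bcan, Ncan, Tnc and Tnr, which encode brevican, neurocan, tenascin-C and tenascin-R. The 8 genes were Bnip3, Bnip3l, Fundc1, Phb2, Bcl2l13, Fkbp8, Pink1 and Optn, and all 8 were found by name among the 18058 genes of the deposited table. Bnip3 was chosen by its lower level in 4xKO in this same comparison, so its values are given as a description without a test. The other 7 were chosen by their role, to ask whether Bnip3 stood alone in its pathway.

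Total RNA of retina was sequenced in 8 samples, with letters A to D for the 4 WT and again for the same number of 4xKO samples. The 4xKO mice carry knockout alleles of all 4 genes and were bred by crossing the single KO lines. The WT mice came from the inbred background strain 129S2/SvPasCrl. Animals of both sexes were used in the study, the age of the sequenced animals was given only as adult, and retinae were pooled for RNA extraction. The values are normalized counts, that is, estimated reads per gene corrected for library size by the authors.

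Mitophagy is the removal of mitochondria by autophagosomes. In the ubiquitin pathway the kinase PINK1 marks damaged mitochondria and adaptors such as optineurin bind the ubiquitin chains, whereas receptors such as BNIP3 sit in the mitochondrial membrane and bind LC3 and GABARAP proteins directly. BNIP3 and HK2 are among the known targets of the hypoxia-inducible factor HIF-1. Of the 35 hypoxia-inducible genes tested below, 1 was called (limma adjusted p under 0.05), and this was Hk2. Over all genes tested, 0.437% were called. Of the 35 genes, 25 had a log2 difference below 0 and 10 above. By limma, 12 of them had an unadjusted p under 0.05, against 16.6% of all genes tested. Whether HIF-1 took part in the difference of Bnip3 or Hk2 was not tested. In the retina, BNIP3L is known for the removal of mitochondria during ganglion cell differentiation, and variants of OPTN are linked to glaucoma.

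The promoters of Bnip3, of its closest relative Bnip3l and of Hk2 are shown because the first and the last of these genes were lower in 4xKO and the one between was not called. Each run holds the 300 bases just upstream of the annotated canonical transcript start on GRCm39, 5′ to 3′ on the strand of the gene, at chr7:138511254-138511553 (minus strand), chr14:67246335-67246634 (minus strand) and chr6:82751453-82751752 (minus strand). Capitals mark the letters ACGTG on either strand (CACGT on the strand shown), the core of the hypoxia response element.
Bnip3: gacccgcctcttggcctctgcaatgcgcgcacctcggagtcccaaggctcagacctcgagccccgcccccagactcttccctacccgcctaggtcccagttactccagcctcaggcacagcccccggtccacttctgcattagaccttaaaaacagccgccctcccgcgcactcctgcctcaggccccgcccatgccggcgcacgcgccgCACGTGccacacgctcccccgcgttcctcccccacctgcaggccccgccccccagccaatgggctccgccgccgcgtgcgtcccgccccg
Bnip3l: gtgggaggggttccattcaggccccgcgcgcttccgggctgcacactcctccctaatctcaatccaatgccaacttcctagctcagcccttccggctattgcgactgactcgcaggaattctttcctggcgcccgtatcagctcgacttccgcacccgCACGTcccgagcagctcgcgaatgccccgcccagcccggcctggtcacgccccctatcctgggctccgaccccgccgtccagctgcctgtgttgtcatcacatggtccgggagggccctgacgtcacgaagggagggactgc
Hk2: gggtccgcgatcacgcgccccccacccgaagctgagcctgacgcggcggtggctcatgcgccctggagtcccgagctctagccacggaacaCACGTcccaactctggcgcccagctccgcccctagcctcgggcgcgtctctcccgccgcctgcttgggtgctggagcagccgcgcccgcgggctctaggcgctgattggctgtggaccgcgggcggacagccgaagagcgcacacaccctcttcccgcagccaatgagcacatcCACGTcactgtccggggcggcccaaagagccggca
In Bnip3 the letters occurred on both strands at the same place, as the palindrome CACGTG that began 90 bases before the start. Bnip3l held ACGTG once, 142 bases before the start, and Hk2 held it at 209 and at 35 bases before the start. Of the 14313 promoters of protein-coding genes tested, 23.5% held ACGTG and 8.44% held the palindrome CACGTG. The alternative core GCGTG occurred 3 times in Bnip3 and once each in Bnip3l and Hk2, and in 43.8% of all promoters. Among the other receptors, none of which was called, Phb2 and Fkbp8 held ACGTG once each. GCGTG occurred 2 times in Bcl2l13 and once each in Fkbp8, Pink1 and Optn. None of the letters searched occurred in the window of Fundc1. Pkp2 and Zmat5, named below because their profiles were like that of Bnip3, were searched as well. Pkp2 held ACGTG 2 times and GCGTG once, and Zmat5 held neither. The bases G and C made up 71.7% of the window of Bnip3 and 71.3% of that of Hk2. In the other receptors they made up 42.7% to 65.3%. A match of letters describes the sequence only.

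Libraries were not uniform. The 13 mitochondrially encoded mRNAs, which are copied from the mitochondrial genome itself, held a share of 0.402% in WT B and 0.341% in WT C, against 1.28% to 1.64% in the other 6 libraries, and the first principal component (50.9% of the variance) set WT B and WT C apart. Of the targeted genes, Ncan had 569 to 789 normalized counts in WT and at most 0.853 in 4xKO, Bcan 197 to 327 against 11.5 to 22.1, and Tnr 5578 to 6317 against 2374 to 2580. Tnc overlapped between the genotypes (881 to 1592 against 1024 to 1249). The rod markers fixed for the retina, all 7 measured, summed to 1271562 to 1690222 normalized counts in WT and to 1698462 to 1835447 in 4xKO. The ganglion cell markers, also 7 of 7, summed to 26240 to 28900 against 21526 to 25562. No single marker in either list was called. The summed markers of the other cell types examined, among them Mueller glia (118795 to 176190 against 117537 to 131724) and lens (65.3 to 2797 against 20.1 to 1817), overlapped between the genotypes. The part of these marker differences in the results below was not tested, and in bulk tissue fewer cells of a type and less RNA per cell cannot be told apart.

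Bnip3, which encodes an outer mitochondrial membrane receptor that binds LC3, was lower in 4xKO than in WT in every library. Bnip3 (ENSMUSG00000078566.9) lies at chr7:138490690-138511253 on the minus strand of GRCm39, where the lncRNA Gm45507 and the pseudogene Gm18258, not analysed here, are annotated on the opposite strand. Its normalized counts were 4470 in WT A, 4475 in WT B, 5033 in WT C and 4481 in WT D, and 3046, 3043, 3088 and 2849 in 4xKO A to D. Every 4xKO library lay below every WT library, and WT A, WT B and WT D lay close together below WT C. The mean was 4615 ± 279 in WT and 3007 ± 107 in 4xKO (SD, n = 4 each), which is 65.2% of WT. On the scale of log2(normalized count + 1) the difference was -0.62 with a standard error of 0.07. Against WT A and WT D alone it was -0.57, and it lay between -0.63 and -0.57 when each library was left out in turn.

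**Figure D1:**
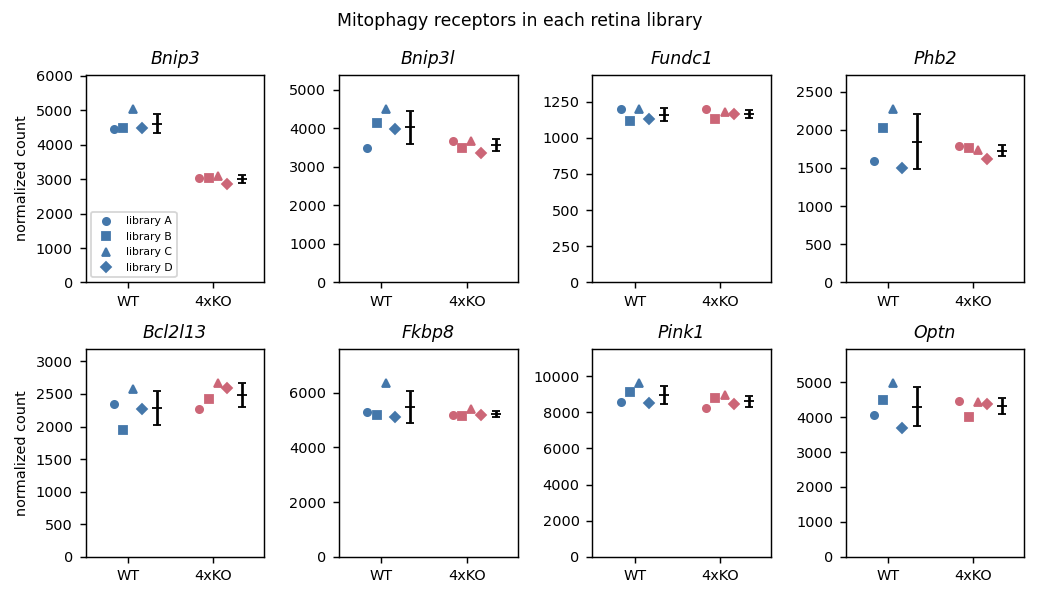
Normalized count (y axis, from 0) of the 8 receptors in 4 libraries each of WT and 4xKO, with a marker shape for each library letter and the mean ± SD beside the points. In Bnip3 the 4xKO libraries (2849 to 3088) lie below the WT libraries (4470 to 5033), and in the other 7 genes the groups overlap.

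Of the 8 receptors, 1 was called by limma at an adjusted p under 0.05, lower in 4xKO, and this was Bnip3. Over all 17636 genes tested, 0.437% were called and 0.176% were called lower. Bnip3 entered by this very contrast, so nothing is read from the count of 1. Likewise, the groups did not overlap in 1 of 8 receptors, against 9.74% of all genes tested. None of the other 7 was called by limma, and 0 of the 7 reached an unadjusted p under 0.05. Their median log2 difference was -0.05, against 0.00 over all genes tested.

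Bnip3l, also called NIX, is the closest relative of Bnip3 and clears mitochondria from maturing red cells. Bnip3l (ENSMUSG00000022051.16, chr14:67222678-67246356) had 3477 normalized counts in WT A, 4151 in WT B, 4497 in WT C and 3982 in WT D. The 4xKO libraries had 3683, 3502, 3679 and 3362. WT A lay among the 4xKO libraries and the other WT libraries lay above them. The means were 4027 ± 425 in WT and 3556 ± 155 in 4xKO (SD, n = 4 each), a log2 difference of -0.17 with a 95% interval from -0.37 to 0.02 (limma adjusted p = 0.31, two-sided exact permutation p = 0.114). Against WT A and WT D alone the difference was -0.07. A transcribed pseudogene, Bnip3l-ps, had a mean of 23.3 normalized counts, and reads could have been split between the pair.

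The other membrane receptors showed smaller differences between their means. Fundc1 encodes an outer membrane receptor whose phosphorylation changes in hypoxia. Fundc1 (ENSMUSG00000025040.14, chrX:17386204-17438572) had 1198, 1115, 1198 and 1133 normalized counts in WT A to D and 1196, 1128, 1176 and 1168 in 4xKO A to D. The range of 4xKO lay entirely within that of WT. The log2 difference was 0.01, with a 95% interval from -0.14 to 0.16 (limma adjusted p = 0.95, two-sided exact permutation p = 0.914).

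Fkbp8 encodes a prolyl isomerase anchored in the outer membrane that recruits LC3A. Fkbp8 (ENSMUSG00000019428.17, chr8:70976037-70987982) had 5286, 5183, 6338 and 5128 normalized counts in WT and 5191, 5162, 5389 and 5175 in 4xKO. WT C stood above the 7 other libraries, which lay within 5128 to 5389. The log2 difference of -0.06 had a 95% interval from -0.24 to 0.12 (limma adjusted p = 0.64, two-sided exact permutation p = 0.657), and it was 0.01 without WT C. Kxd1 overlaps Fkbp8 on the opposite strand and had a mean of 452 normalized counts.

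Bcl2l13, a BCL2-like outer membrane protein that can take the place of the yeast receptor Atg32, overlapped between the genotypes as well. Bcl2l13 (ENSMUSG00000009112.5, chr6:120813144-120891322) had 2341, 1947, 2581 and 2265 normalized counts in WT and 2265, 2420, 2661 and 2598 in 4xKO. Of all libraries WT B was lowest and 4xKO C highest. The log2 difference was 0.13, with a 95% interval from -0.09 to 0.35 (limma adjusted p = 0.44, two-sided exact permutation p = 0.20), and it was 0.05 without WT B. Bid, which overlaps Bcl2l13 on the opposite strand, had a mean of 52.2 normalized counts.

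Phb2, a prohibitin of the inner membrane that binds LC3 once the outer membrane is ruptured, varied most among the WT libraries. Phb2 (ENSMUSG00000004264.18, chr6:124689299-124693913) had 1585, 2020, 2269 and 1504 normalized counts in WT and 1783, 1767, 1737 and 1619 in 4xKO. WT B and WT C lay above, and WT A and WT D below, every 4xKO library. The log2 difference was -0.08, with a 95% interval from -0.37 to 0.22 (limma adjusted p = 0.74, two-sided exact permutation p = 0.571). Its sign changed to 0.16 when WT was reduced to its libraries A and D. A snoRNA annotated within Phb2 on the same strand, Gm23547, had a mean of 699 normalized counts.

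The genes of the ubiquitin pathway were not called either. Pink1, the kinase that phosphorylates ubiquitin on damaged mitochondria, had the highest normalized counts of the 8. Pink1 (ENSMUSG00000028756.13, chr4:138039346-138053618) had 8570, 9111, 9598 and 8535 in WT and 8259, 8777, 8936 and 8483 in 4xKO. The groups overlapped, with WT B and WT C above all other libraries. The log2 difference was -0.05, with a 95% interval from -0.20 to 0.09 (limma adjusted p = 0.62, two-sided exact permutation p = 0.314), and it was 0.01 with only WT A and WT D kept. Ddost overlaps Pink1 on the opposite strand and had a mean of 1571 normalized counts.

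Optn encodes optineurin, which links ubiquitin on mitochondria to LC3. Optn (ENSMUSG00000026672.12, chr2:5022703-5068945) had 4064, 4489, 4962 and 3694 normalized counts in WT and 4472, 3996, 4435 and 4362 in 4xKO. WT C was the highest and WT D the lowest of all 8 libraries. The log2 difference was 0.01, with a 95% interval from -0.20 to 0.23 (limma adjusted p = 0.95, two-sided exact permutation p = 1).

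Across these 7 genes the 95% intervals ran from -0.37 to 0.35, which leaves room for differences of up to -0.37 in Bnip3l and Phb2. For Bnip3 the difference was -0.62, with a standard error of 0.07. Bnip3 was chosen by this difference, so the gap to the other 7 is a description only. In all 8 receptors the coefficient of variation was smaller in 4xKO than in WT. For Bnip3 it was 6.04% in WT and 3.56% in 4xKO, against medians of 18.3% and 7.26% over all genes tested.

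**Figure D2:**
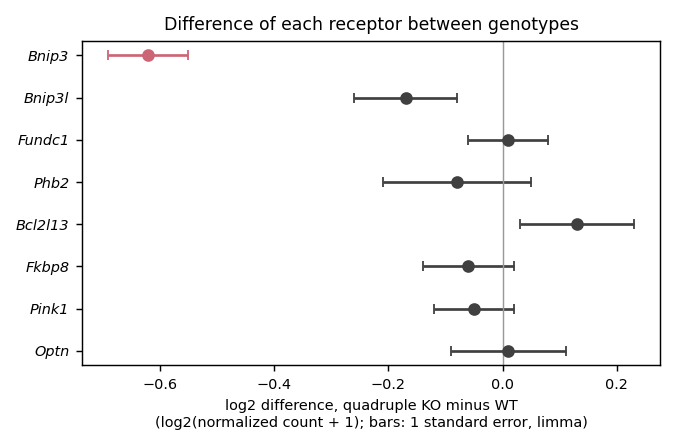
Log2 difference of each receptor, 4xKO minus WT (x axis, log2(normalized count + 1)), with bars of 1 standard error from limma. Bnip3 lies at -0.62 and the other 7 between -0.17 and 0.13.

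The ratio of Bnip3 to another receptor in the same library does not depend on how libraries were scaled. Bnip3 had 1.29, 1.08, 1.12 and 1.13 times the normalized counts of Bnip3l in WT A to D, and 0.827, 0.869, 0.839 and 0.847 times in 4xKO A to D. These ratios are of counts not divided by gene length, so they compare libraries and do not say which of the pair had the higher level. The ratio to Pink1 was 0.516 ± 0.0163 in WT and 0.349 ± 0.0139 in 4xKO (SD, n = 4 each). The ratio to Fundc1 was 3.98 ± 0.193 in WT and 2.58 ± 0.111 in 4xKO (SD, n = 4 each). For each of the 7 receptors the ratios of the genotypes did not overlap, which follows in part from the choice of Bnip3.

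**Figure D3:**
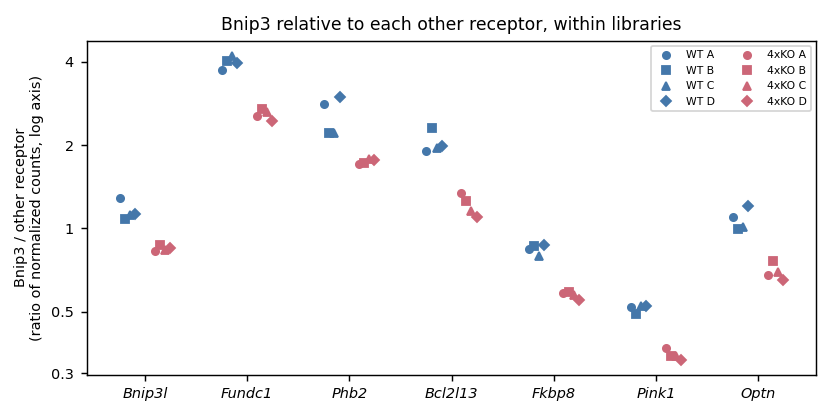
Normalized count of Bnip3 divided by that of each other receptor (y axis, log scale) in each WT and 4xKO library. For Bnip3l the ratio is 1.08 to 1.29 in WT and 0.827 to 0.869 in 4xKO, and the groups are apart in all 7 ratios.

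Levels of different genes were compared per kb of merged exon length. On this scale Pink1 was the highest receptor in both genotypes, with 2212 ± 125 normalized counts per kb in WT and 2128 ± 74.6 in 4xKO (SD, n = 4 each). Bnip3 came second in WT with 1068 ± 64.5 per kb and Fkbp8 came next with 841 ± 87.9, and these 2 did not overlap (1035 to 1165 against 786 to 971). In the 4xKO the order of the pair was turned, with 660 to 715 per kb for Bnip3 and 791 to 826 for Fkbp8. Bnip3l followed with 732 ± 77.2 in WT and 646 ± 28.1 in 4xKO. On merged exons Phb2, Optn, Fundc1 and Bcl2l13 made up the lower end, from 496 ± 97.6 down to 195 ± 22.4 per kb in WT. Bnip3 held 17.3% ± 0.52 of the sum over the 8 receptors in WT and 12.4% ± 0.283 in 4xKO (SD, n = 4 each). With the length of the longest transcript in place of merged exons, Fkbp8 was above Bnip3 in WT as well (1474 ± 154 against 1228 ± 74.2 per kb), so the order of these 2 in WT rests on the length used. Optn moved up on that length, to 1013 ± 129 per kb in WT, where the mean of Bnip3l was 872 ± 92, and to 1016 ± 51.5 in 4xKO, where that of Bnip3 was 800 ± 28.5.

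**Figure D4:**
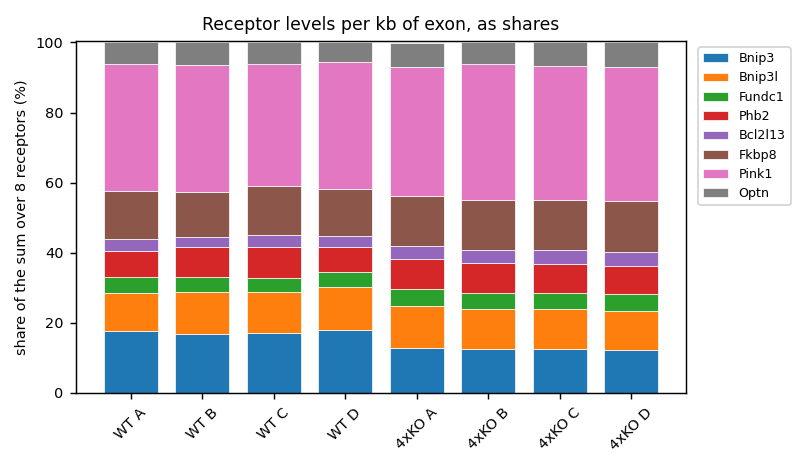
Share of each receptor in the sum over the 8 receptors (y axis, percent), from normalized counts per kb of merged exon, in each library. The share of Bnip3, at the bottom of each bar, is 16.7% to 17.8% in WT and 12.1% to 12.7% in 4xKO.

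In the list of mitophagy partners and regulators, 0 of 43 measured genes were called by limma, and 8 had an unadjusted p under 0.05. Over all genes tested, 0.437% were called, 16.6% had an unadjusted p under 0.05, and in 9.74% the groups did not overlap. At such a share of calls, 0 calls in a list of this size say little. The same holds for the lists below. In 2 genes of this list every 4xKO library lay below every WT library, and in 3 every 4xKO library lay above. The median log2 difference of the list was -0.06. The ubiquitin-binding adaptor Sqstm1 had 6731 ± 413 normalized counts in WT and 6437 ± 267 in 4xKO (SD, n = 4 each). The lowest differences were those of the ubiquitin ligase Huwe1 (-0.52) and of Vps13d (-0.30), and the highest were those of Csnk2a1, a catalytic subunit of casein kinase 2 (0.41), and of the deubiquitinase Usp30 (0.37). Each of these 4 had a limma adjusted p of 0.30. Huwe1 had 28224 and 28798 normalized counts in WT B and WT C, against 18228 and 15232 in WT A and WT D. Csnk2a1 had 2845 and 2799 in WT B and WT C, against 4271 and 4356 in WT A and WT D. WT B and WT C were also the lowest of all libraries for Usp30 and the highest for Vps13d.

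Of the 37 genes of the autophagosome core, 0 were called by limma and 9 had an unadjusted p under 0.05, with a median of 0.10. In 1 gene every 4xKO library lay below every WT library, and in 3 every 4xKO library lay above. Becn1, a subunit of the lipid kinase complex that starts autophagosomes, had the lowest difference (-1.06, standard error 0.42, limma adjusted p = 0.30), with 3526 ± 2189 normalized counts in WT and 1421 ± 126 in 4xKO (SD, n = 4 each). Its groups overlapped, with 5550 and 5270 in WT B and WT C and 1906 and 1377 in WT A and WT D. Atg16l2 followed with -0.53, and Wipi1 (0.36) and Lamp2 (0.35) were at the upper end. WT B and WT C were the highest of all libraries for Atg16l2 and the lowest for Wipi1 and Lamp2. Map1lc3b, which encodes the LC3B that mitophagy receptors bind, had 3954 ± 73.9 normalized counts in WT and 4226 ± 196 in 4xKO (SD, n = 4 each, log2 difference 0.10, limma adjusted p = 0.37).

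Among 35 measured hypoxia-inducible genes, 1 was called, lower in 4xKO, and 12 had an unadjusted p under 0.05, with a median of -0.08. Over all genes tested, 0.437% were called and 16.6% had an unadjusted p under 0.05. The called gene was Hk2 (ENSMUSG00000000628.11), the hexokinase of glycolysis that binds the mitochondrial outer membrane. Hk2 had 23148, 26813, 27196 and 22556 normalized counts in WT A to D and 16915, 15934, 18963 and 16313 in 4xKO A to D. Every 4xKO library lay below every WT library. The log2 difference was -0.55 (standard error 0.09, limma adjusted p = 0.038), and against WT A and WT D alone it was -0.43 (limma adjusted p = 0.04). The call was lost in 7 of the 8 fits without a library, all except that without WT D, while the difference stayed between -0.60 and -0.50. The adjusted p over all alternatives ran from 0.0086 to 0.20.

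Other genes of the hypoxia response were not called. Ak4, a mitochondrial adenylate kinase, had the lowest difference (-0.65, standard error 0.26) with overlapping groups and its highest values in WT B (2720) and WT C (2446), and Adm (0.34) and Mxi1 (0.31) were highest. Of the 35 genes, 25 had a difference below 0 and 10 above. In 5 every 4xKO library lay below every WT library, namely Hk2, Fam162a (-0.43) and the glycolytic enzymes Pfkl (-0.40), Gpi1 (-0.28) and Aldoa (-0.26). In 1, Mxi1, every 4xKO library lay above. Over all 17636 genes tested, every 4xKO library lay below WT in 632 and above WT in 1086. In Fam162a, Pfkl, Gpi1 and Aldoa, each with a limma adjusted p of 0.30, WT B and WT C were the highest of the 8 libraries. Of the 10 hypoxia-sensing factors 0 were called by limma, 2 had an unadjusted p under 0.05, and the median was -0.16. Hif1a, the oxygen-regulated subunit of HIF-1, had 17245 to 21826 normalized counts in WT and 22986 to 23801 in 4xKO, without overlap (log2 difference 0.26, limma adjusted p = 0.30). Its 2 lowest libraries were WT B and WT C. Siah1a was next with 0.20, and Vhl (-0.83, standard error 0.40, limma adjusted p = 0.31) and Arnt2 (-0.45) were lowest. Vhl had 3286 and 2676 normalized counts in WT B and WT C, while WT A (909) and WT D (945) lay within the 860 to 1002 of 4xKO.

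The BCL2 family shares its BH3 motif with Bnip3. Of its 16 measured genes 0 were called by limma, 2 had an unadjusted p under 0.05, and the median was -0.09. The lowest differences were those of the BH3-only gene Pmaip1 (-0.81) and of Bok (-0.72), and the highest those of Bcl2l15 (0.55) and of the anti-apoptotic Bcl2 (0.17). Bok had 579 and 525 normalized counts in WT B and WT C, against 230 and 235 in WT A and WT D and 194 to 234 in 4xKO.

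**Figure D5:**
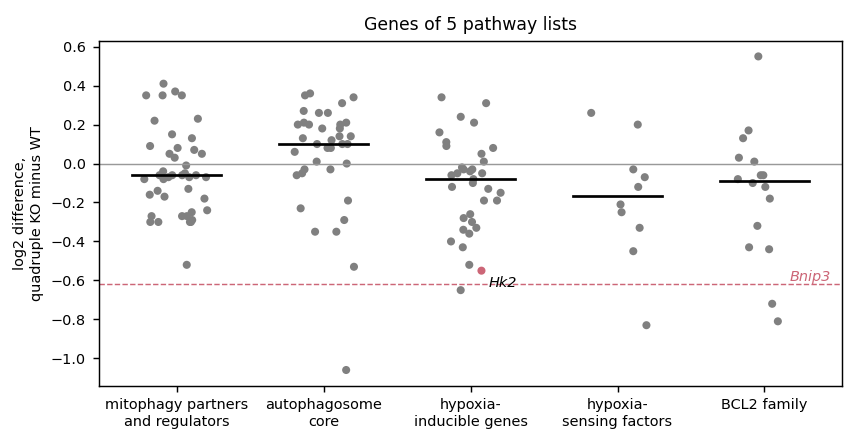
Log2 difference between 4xKO and WT (y axis) of each measured gene in 5 pathway lists, with a bar at each list's median and the difference of Bnip3 as a dashed line at -0.62. Hk2, in colour, is the gene called in these lists.

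The surroundings of Bnip3 on chromosome 7 were examined because the rule did not use them. Of the 1346 genes tested on this chromosome, Bnip3 was the only gene called, against 0.437% of all genes tested. As Bnip3 was chosen by this contrast, nothing is read from its own call. Within 1 Mb of Bnip3, 0 of 13 genes were called by limma and 4 had an unadjusted p under 0.05. The nearest gene, Ppp2r2d, a regulatory subunit of protein phosphatase 2A, ends 5.5 kb away and had a log2 difference of -0.10 (limma adjusted p = 0.48). On the other side, Jakmip3 at 30.8 kb had -0.20. Of the 13 genes 10 had a difference below 0, and in 2 of them, Dpysl4 (-0.35) and Lrrc27, every 4xKO library lay below WT. In 1 of the 13, Mapk1ip1 (0.16), every 4xKO library lay above. Over all genes tested, 16.6% had an unadjusted p under 0.05, and in 9.74% the groups did not overlap. Lrrc27, at chr7:138792854-138823893 and 281.6 kb away, had 521 ± 65.3 normalized counts in WT and 328 ± 33.7 in 4xKO (SD, n = 4 each) without overlap, a log2 difference of -0.66 with a standard error of 0.12 (limma adjusted p = 0.064).

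The genes whose profile over the 8 libraries was most like that of Bnip3 were found by the root mean square difference of log2 values, each gene centred on its mean. This distance takes in the difference between genotypes by which Bnip3 was chosen. Genes with a like fall in 4xKO therefore come first by construction, and the ranks are a description only. The closest of 17635 genes was Pkp2, which encodes the desmosomal protein plakophilin 2, at 0.050. Pkp2 had 509, 486, 541 and 508 normalized counts in WT and 331, 340, 353 and 343 in 4xKO, with WT C the highest, as for Bnip3. WT C was the highest WT library in all 8 receptors. Zmat5, a component of the minor spliceosome, followed at 0.086, and Hk2 was the next at 0.096. Pwwp3b, D630033O11Rik, Gm40841, Gm7143 and Lrrc27 made up the rest of the first 8 at up to 0.112. The median over all genes was 0.381. Of the receptors Bnip3l was closest at 0.232, at rank 829, and Bcl2l13 was farthest at 0.387.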

How the data were processed

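Total RNA of 8 mouse retina samples was sequenced from libraries made with a directional total RNA kit. The authors trimmed reads with Trim Galore 0.6.7, aligned them with STAR 2.7.9a to GRCm39, quantified genes with Salmon 1.5.2 and deposited normalized counts from DESeq2 1.32.0 in R 4.1.1. Whether counting used the strand is not given in the sources used here. Columns with the authors' own comparison (fold change, p-value) were left out. Low values lay on no common step (at most 66.6% within 0.05 of whole multiples), so reads and depth were not recovered, and the library totals of normalized counts do not show depth.

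Genes with a mean of at least 10 were compared as log2(normalized count + 1) with limma 3.58.1 (lmFit, eBayes with trend, R 4.3.3) without covariates, and p-values were adjusted by Benjamini-Hochberg over 17636 genes. This scale understates changes of low counts. Exact permutation tests on normalized counts can reach 0.0286 at the lowest. The series' design names 4 mice per genotype and the methods pooled retinae, so p-values measure the spread between libraries, which may be technical. Members and lists were chosen with earlier results of these data known. Named genes were the receptors, the targeted genes, called genes and the 2 highest and 2 lowest of each list, neighbours of Bnip3 that are called or nearest, and the 8 genes most like it. Sqstm1, Map1lc3b, Fam162a, Pfkl, Gpi1, Aldoa, Dpysl4, Mapk1ip1 and Ndrg1 were named after their values were seen. Positions and lengths came from GENCODE vM39, and promoters from the GRCm39 sequence. The fit was also run on simulated counts, drawn independently for each library. These lacked the split of WT B and WT C from the other libraries, so the fit was not tested in that setting. Python 3.11.15, numpy 2.4.6, pandas 2.3.3, scipy 1.17.1 and matplotlib 3.10.9 were used.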

Additional observations from a re-analysis of the deposited data

Results flagged for a closer look

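Of the 16 groups of 4 libraries (8 receptors in both genotypes), 3 held a library far from its neighbours by Dixon's criterion, which chance gives in about 1 of 20 groups. Bnip3 had 5033 normalized counts in WT C, above the 4470 to 4481 of the other WT libraries, and its log2 difference without WT C was -0.57. Fkbp8 had 6338 normalized counts in WT C and 5389 in 4xKO C, each the highest of its group.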

How the results depend on the processing

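The difference of Bnip3 kept its direction and size in all 18 alternatives (-0.63 to -0.57), and none of the other 7 receptors was called in any. The signs of small differences turned. With array weights Fundc1 was -0.02 and Phb2 0.11, and with WT reduced to libraries A and D Phb2 was 0.16, Fkbp8 0.01 and Pink1 0.01. Leaving out each library gave -0.01 to 0.02 for Fundc1, -0.17 to 0.03 for Phb2, -0.09 to 0.01 for Fkbp8 and -0.06 to 0.08 for Optn. Called genes numbered 77, with 143 under array weights, 51 with the letter as a replicate block and 56 to 89 without a library. The deviations of libraries of the same letter had correlations from -0.109 to 0.098, and not every library correlated best with its own letter. With 4 libraries per genotype such correlations cannot exclude a shared batch. The labels do not say what the letters stand for, and the main comparison treated them as names. Hypoxia-inducible genes called numbered 1, with 0 without the trend, 0 with the replicate block, 2 with WT A and WT D only (Hk2, and Ndrg1 at 0.30, higher in 4xKO) and 0 to 1 without a library. The other lists had 0 calls throughout. With the longest transcript as length, the share of Bnip3 was 14.5% in WT and 10.3% in 4xKO. The causes were not tested, except that a lost library leaves fewer samples.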
